A study of Mus musculus with 6 samples.

Results

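Accessible chromatin was described at 8 genes of the TNF receptor superfamily that Tregs use: Tnfrsf18 (encoding GITR), Tnfrsf4 (OX40), Tnfrsf9 (4-1BB), Tnfrsf1b (TNFR2), Tnfrsf8 (CD30), Tnfrsf25 (DR3), Tnfrsf14 (HVEM) and Cd27. Each gene was taken with its RefSeq span and 10 kb on either side, and every peak that overlapped this window in any of 6 peak lists was kept. Peaks that overlapped between lists were merged into 1 region. The 8 genes, of 16246 protein-coding genes with a peak in such a window, held 53 of the 64817 merged regions, and 7 of them lie on chromosome 4 and Cd27 on chromosome 6. Because Tnfrsf4 and Tnfrsf18 are neighbours, 2 regions fell in the windows of both.

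The libraries were ATAC-seq libraries, in which the transposase Tn5 cuts and tags open DNA, of regulatory T cells (Tregs) from lymph nodes draining B16.F10 tumours, a transplantable mouse melanoma. Cells were taken on day 14 after 300000 tumour cells had been injected under the skin, from wild-type C57BL6 mice (WT, 3 libraries, replicates 2, 4 and 6) or il33-/- mice on C57BL6 (KO, 3 libraries, replicates 1, 2 and 4), which lack the alarmin interleukin-33 in the whole animal. All mice carried the tumour, so there was no tumour-free group, and the comparison asked how the chromatin of tumour-exposed Tregs differed without interleukin-33. The sort kept CD4+CD25+GITR+ cells, so the product of Tnfrsf18 was itself part of the gate, and its openness is no independent finding. The labels do not say whether replicates came from separate mice, so the tests measure only the spread between these libraries.

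The TNF receptor superfamily is a set of membrane proteins with cysteine-rich extracellular repeats that bind trimeric ligands of the TNF family. GITR, OX40, 4-1BB, TNFR2, CD30, HVEM and CD27 recruit TRAF adaptor proteins and activate NF-kB, while DR3 carries a death domain and signals through TRADD. In Tregs the costimulatory members support survival, expansion and effector differentiation, and GITR, OX40 and TNFR2 are among the receptors by which Tregs are told from conventional T cells.

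Tnfrsf9 was the member with 2 annotated starts that differed in accessibility, and its promoter sequences are shown first for that reason. The first start, at position 150920155 of chromosome 4, lay in no region in any library. The second, at 150927999, lay in a region called in all 6. The sequences run from 250 bases before to 50 bases after each start (RefSeq, GRCm38.p6, the assembly of mm10), 5′ to 3′ along the gene. Capitals mark matches, on either strand, to an NF-kB motif (GGG and TTTCC with any 2 bases between them), TGANTCA (AP-1) and TGTGGT (RUNX, reverse ACCACA). The first start is at chr4:150919905-150920204 and the second at chr4:150927749-150928048, both on the plus strand.
Tnfrsf9, first start: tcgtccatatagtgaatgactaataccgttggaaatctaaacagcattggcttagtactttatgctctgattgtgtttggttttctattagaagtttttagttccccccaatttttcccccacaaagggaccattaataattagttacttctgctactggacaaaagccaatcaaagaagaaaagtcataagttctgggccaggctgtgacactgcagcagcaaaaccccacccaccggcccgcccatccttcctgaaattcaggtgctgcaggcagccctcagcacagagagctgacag
Tnfrsf9, second start: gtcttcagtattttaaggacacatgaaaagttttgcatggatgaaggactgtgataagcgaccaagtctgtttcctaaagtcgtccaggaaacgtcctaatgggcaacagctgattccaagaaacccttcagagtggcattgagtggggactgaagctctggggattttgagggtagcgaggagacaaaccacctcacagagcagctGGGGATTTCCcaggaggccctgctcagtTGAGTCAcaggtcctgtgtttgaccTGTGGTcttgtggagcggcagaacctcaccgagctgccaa

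Counting the start base as 0, the second Tnfrsf9 start held the NF-kB match at -43, the AP-1 match at -15 and the RUNX match at 10, with no overlap between them, and the first start held none of the 3. Among 32851 RefSeq promoter windows of the same length, 1.63% held the NF-kB motif, 7.81% the AP-1 motif and 16.8% the RUNX motif. Of the 10 annotated starts of the 8 genes, 2 held each of these motifs. The forkhead motif TGTTTAC (reverse GTAAACA), found in 3.65% of windows, was in none of the 10. A match is a description of the letters and not evidence of binding.

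The remaining matches were in Tnfrsf8, with AP-1 at -132, and in the first start of Tnfrsf25, with NF-kB at -218 and RUNX at -92, both on the reverse strand. Tnfrsf18, the gene of the sort marker, held no match, and its promoter is printed because the peak over it behaved differently from the others. The windows are chr4:145315115-145315414 (Tnfrsf8, minus strand), chr4:152115684-152115983 (Tnfrsf25, plus strand) and chr4:156026072-156026371 (Tnfrsf18, plus strand).
Tnfrsf8: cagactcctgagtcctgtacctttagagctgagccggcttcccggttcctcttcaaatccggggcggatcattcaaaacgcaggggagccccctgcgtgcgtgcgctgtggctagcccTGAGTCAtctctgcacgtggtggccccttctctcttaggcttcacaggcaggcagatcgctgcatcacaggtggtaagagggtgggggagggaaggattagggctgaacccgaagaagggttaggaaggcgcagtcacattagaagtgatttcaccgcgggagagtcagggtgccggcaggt
Tnfrsf25, first start: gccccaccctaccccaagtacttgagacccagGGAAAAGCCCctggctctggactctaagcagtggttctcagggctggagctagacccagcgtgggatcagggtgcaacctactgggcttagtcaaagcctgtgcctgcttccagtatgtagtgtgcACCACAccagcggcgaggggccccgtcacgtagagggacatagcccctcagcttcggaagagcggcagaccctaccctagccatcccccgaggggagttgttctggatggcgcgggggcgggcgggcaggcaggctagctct
Tnfrsf18: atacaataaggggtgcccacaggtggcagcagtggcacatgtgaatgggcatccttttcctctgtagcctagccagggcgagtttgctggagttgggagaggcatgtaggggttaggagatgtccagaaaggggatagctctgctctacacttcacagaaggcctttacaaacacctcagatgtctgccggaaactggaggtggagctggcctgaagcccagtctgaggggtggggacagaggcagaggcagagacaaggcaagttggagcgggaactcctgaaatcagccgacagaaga

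The libraries differed in depth along with genotype. WT libraries kept 12.9 to 15.2 M (mega) tags and gave 52836 to 55939 peaks, and KO libraries kept 4.72 to 10.3 M tags and gave 37266 to 42738 peaks. Genotype and depth therefore cannot be told apart, nor, in pooled cells, can fewer cells with an open site and less opening per cell, and absence from a KO list means no call at its depth, not closed chromatin. Regions at the Treg markers Foxp3, Il2ra, Ctla4 and Ikzf2 were called in all 6 libraries. So were regions at 4 of 4 T cell markers and 3 of 5 B cell, 2 of 5 CD8 T and NK, 3 of 5 myeloid and 3 of 5 melanoma markers. A region called in all 6 libraries is thus not particular to Treg genes. Over the 4 Treg markers the lists held 45 to 49 peaks per WT and 32 to 37 per KO library. A region covered the gene start in all 6 libraries at 2 of these 4 genes, Il2ra and Ctla4 but not Foxp3 or Ikzf2. The same held at 3 of 4 T cell markers, all but Cd4, and at 0 of the B cell, CD8 T and NK, myeloid and melanoma markers. CD25, the product of Il2ra, and CD4 were part of the sort gate, so Il2ra and Cd4 are not independent markers here. Ms4a1, Ncr1, Lyz2, Csf1r, Tyr and Dct had no peak in any library. Other such markers did have peaks: the 5 B cell markers held 15 to 19 peaks per WT and 8 to 12 per KO library, the 5 CD8 T and NK markers 8 and 4 to 6, the 5 myeloid markers 11 and 8 to 10, and the 5 melanoma markers 11 to 12 and 8 to 9. Their part in the values below was not tested.

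The 8 genes were open in both genotypes. Of their 53 regions, 39 (73.6%) were called in all 6 libraries, beside 45.4% of all regions. The WT libraries shared 46 regions, and the KO libraries called 84.8% of these without exception, beside 67.6% over the whole lists. A further 5 were called in 1 or 2 KO libraries and 2 in none, while 7 were called in 1 or 2 WT libraries alone. No region was called in KO libraries only. The shares of all regions called in 3 WT and 1 or 2 KO libraries, or in 1 or 2 WT libraries alone, are not given here. Nor is the share called in any number of KO libraries only, so these counts have no background. Over all regions, 4.66% were called in 3 WT and 0 KO libraries and 0.0185% in 3 KO and 0 WT libraries.

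Height was the deposited pileup, the number of extended tags stacked at the summit, divided by the median pileup of all peaks in the same list (a scaled pileup of 1 is a typical peak). The 39 regions called in all 6 libraries had a median scaled pileup of 2.21, and 34 of them (87.2%) lay above the median of 1.47 over all 29419 such regions. Their range was 0.891 to 4.39. By position, 20 lay in a gene span, 7 over a start of a member gene and 2 over the start of another gene, Park7 or E130112N10Rik. Whether a region is exonic or intronic is not given in the reference table used here. Summits were placed alike in the 6 libraries, with a median spread of 84 bp per region, beside 78 bp over all regions.

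Summed over the regions called in all 6 libraries and divided by the length of the window, accessibility was highest at Tnfrsf4, with 0.544 ± 0.0145 scaled pileup per kb in WT (SD, n = 3). Tnfrsf18 followed at 0.514 ± 0.00345, Tnfrsf9 at 0.468 ± 0.0145, Cd27 at 0.399 ± 0.0107, Tnfrsf1b at 0.367 ± 0.0144 and Tnfrsf25 at 0.270 ± 0.00862 (SD, n = 3 each). Tnfrsf8, at 0.173 ± 0.00814, and Tnfrsf14, at 0.168 ± 0.00543, were lowest. The WT libraries of neighbouring genes in this order did not overlap, except those of Tnfrsf8 and Tnfrsf14. In KO the values ran from 0.500 ± 0.0326 at Tnfrsf4 to 0.145 ± 0.00684 at Tnfrsf8, and Tnfrsf14, at 0.155 ± 0.0131, stood above Tnfrsf8 with overlapping libraries. Tnfrsf4 and Tnfrsf18 share their tallest region, so the top of the order rests partly on the same peak, and the Tnfrsf18 start region, missing in 1 library, is not in these sums. Their windows are mostly flank, at 23.0 and 22.6 kb around gene spans of 3019 and 2573 bp. Of the summed regions, only the start region lay in Tnfrsf4 and none lay in Tnfrsf18.

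**Figure D1:**
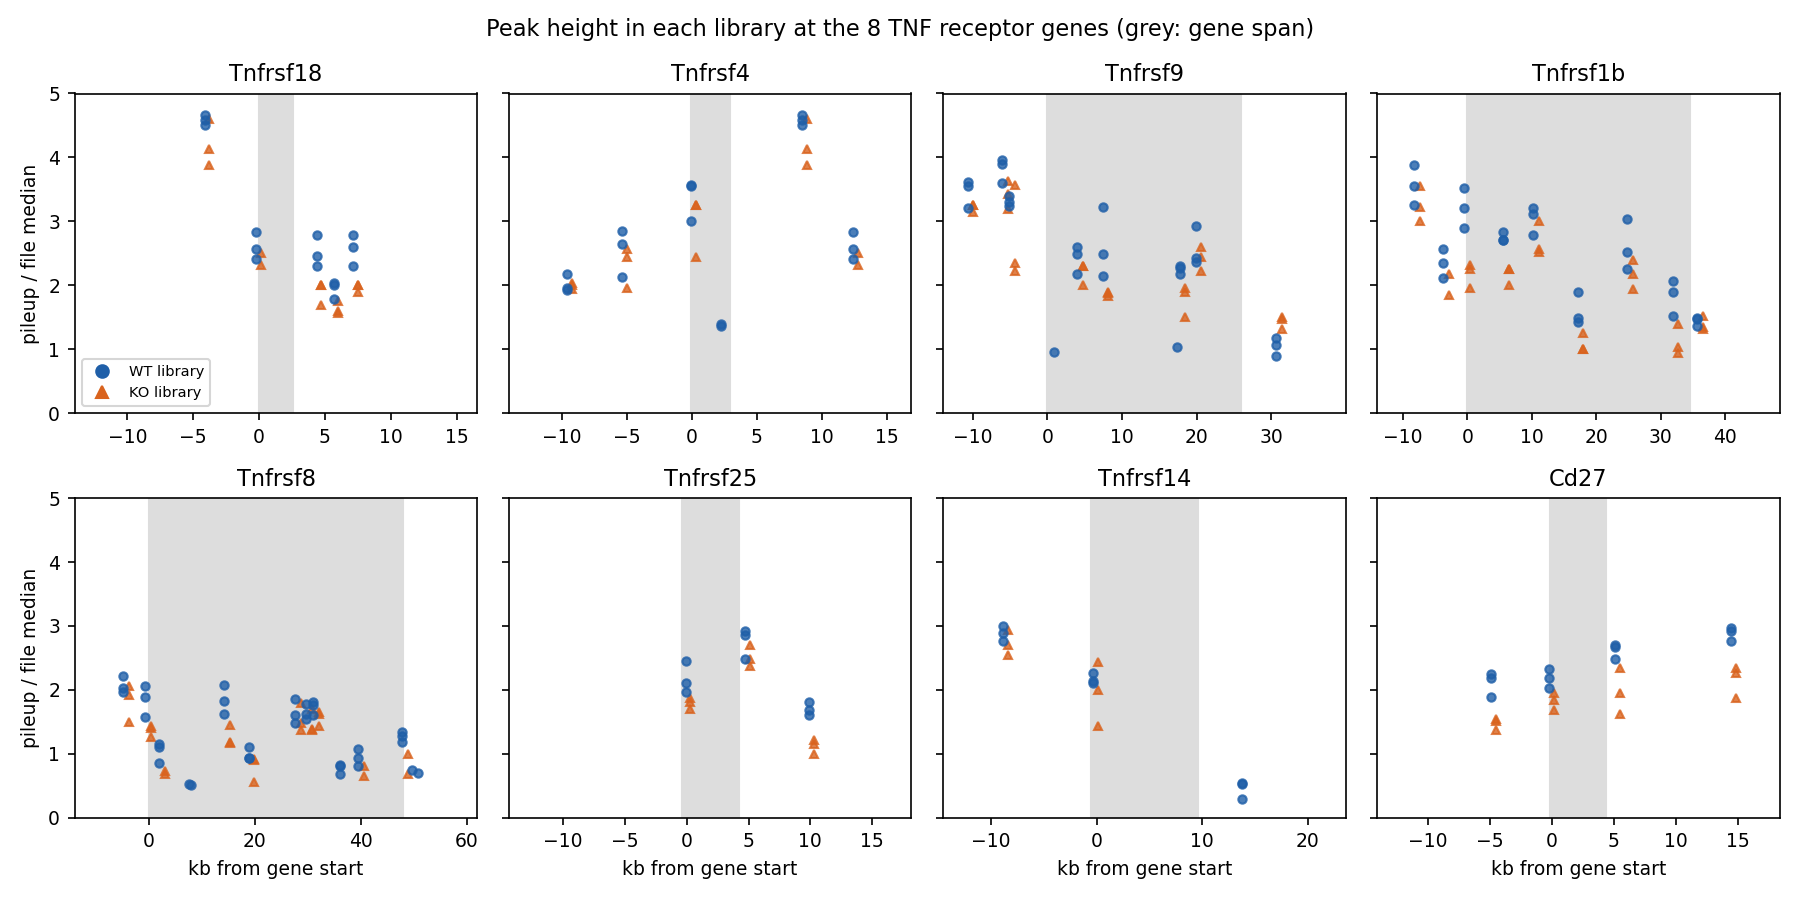
Scaled pileup (y axis, multiples of the file median) of every called region against distance from the gene start in kb along the gene (x axis), for each of the 8 genes. Each point is 1 library, circles for WT and triangles for KO (drawn slightly apart), and grey marks the gene span. The tallest region, shared by the Tnfrsf18 and Tnfrsf4 panels, reaches 4.67, whereas most Tnfrsf8 regions stay below 2.

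GITR and OX40, costimulatory receptors that Tregs carry at high levels, are encoded side by side on the plus strand of chromosome 4. The tallest region at any of the 8 genes lay between them (4:156021413-156022720), 3.96 kb upstream of the Tnfrsf18 start and inside the long noncoding gene Gm16008. Its scaled pileup was 4.50, 4.67 and 4.59 in WT replicates 2, 4 and 6, and 4.60, 3.88 and 4.13 in KO replicates 1, 2 and 4. The groups overlapped, through KO replicate 1. This height lay at the 98.0 percentile of all regions called in all 6 libraries.

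The Tnfrsf18 start itself was covered by a lower region (4:156025976-156026584), with scaled pileups of 2.57, 2.41 and 2.83 in WT and 2.50 and 2.31 in KO replicates 1 and 2. KO replicate 4, the deepest KO library, had no call there. This was unusual for a region of that height: 7245 regions at least as tall were called in all 6 libraries, and 10 in exactly 5. All of those 10 were missing in a KO library, and this was the one missing in KO replicate 4. The deposited fold enrichment, which divides the height by the local background, was only 2.80, 2.45 and 2.98 in WT and 3.35 and 3.26 in KO. It lay at the 0.150 percentile of the folds of regions called in all 6 libraries, and the local background at the 99.7 percentile. That background was worked back from the deposited pileup and fold. Its window of 10000 bp can hold neighbouring peaks, whose part was not tested.

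Local background was also high over the regions of the 8 genes as a group. Relative to the file median pileup, the background had a median of 0.338 over the 39 regions, against 0.150 over all regions called in all 6 libraries. The median fold was 5.66 against 7.83, so that by fold these regions ranked below the typical region and by height above it. A further 3 regions lay beyond the Tnfrsf18 end, with mean heights in WT of 1.94 ± 0.136 to 2.56 ± 0.239 (SD, n = 3).

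**Figure D2:**
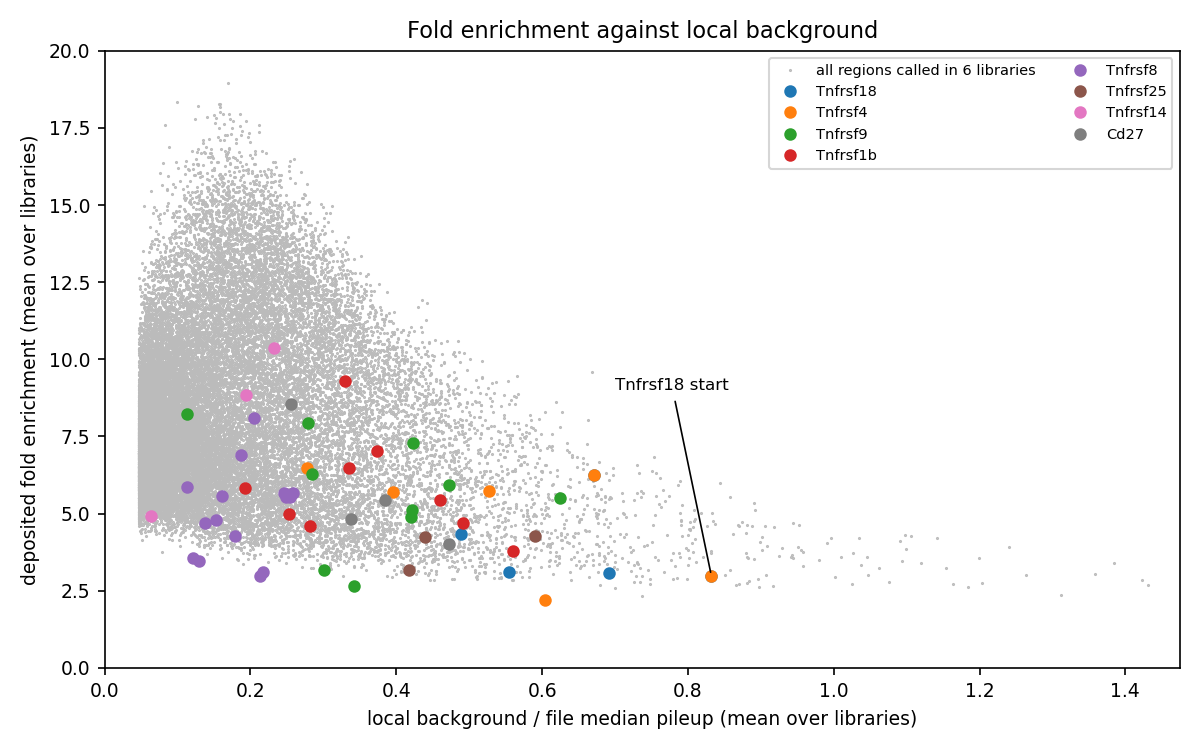
Mean deposited fold enrichment (y axis) against mean local background as a multiple of the file median pileup (x axis) for all 29419 regions called in 6 libraries (small grey points) and for all regions of the 8 genes (coloured by gene, over the libraries in which each was called, the 2 regions shared by Tnfrsf18 and Tnfrsf4 in the Tnfrsf4 colour). The Tnfrsf18 start region has a fold of 2.97 at a background of 0.832, near the lower edge.

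At Tnfrsf4, the region over the start (4:156013627-156014588) had scaled pileups of 3.57, 3.0 and 3.55 in WT and 3.25, 2.44 and 3.26 in KO. The groups overlapped, and the summits of the 6 libraries lay within 9 bp. Both regions further upstream, 9.40 and 5.21 kb before the start and inside the neighbouring gene Sdf4, were called in all 6 libraries. A short region in the gene, 2.41 kb past the start, was called in WT replicates 2 and 4 alone, at 1.39 and 1.37.

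4-1BB, an activation-induced costimulatory receptor, is encoded by Tnfrsf9, where 8 of 10 regions were called in all 6 libraries. Tnfrsf1b also had 8, and 98.4% of all genes with a region had fewer. The tallest (4:150914120-150914918) lay 5.69 kb upstream of the first start, with scaled pileups of 3.61, 3.96 and 3.90 in WT and 3.20, 3.62 and 3.43 in KO. KO replicate 2 stood just above WT replicate 2, so the groups overlapped. Between the 3 regions upstream and the next one called in all 6, 4.38 kb into the gene, the only call was a short region in WT replicate 6, and the first start lay in this gap.

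The region over the second Tnfrsf9 start (4:150927171-150928218), whose sequence is shown above, had scaled pileups of 2.14, 3.22 and 2.48 in WT and 1.90, 1.88 and 1.83 in KO. WT replicate 4 was highest, and every KO library lay below every WT library, as at 48.2% of all regions called in all 6. After centring (explained below) the log2 difference was -0.12 (SE 0.13, limma adjusted p = 0.698). Its summits spread over 461 bp between libraries, which is wide beside the median of 84 bp.

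TNFR2, the receptor through which TNF drives Treg expansion, is encoded on the minus strand by Tnfrsf1b. The region over its start (4:145246200-145247230) had scaled pileups of 3.21, 3.52 and 2.90 in WT and 2.25, 2.31 and 1.96 in KO. Every KO library was below every WT library, as at 48.2% of all regions called in all 6. The deposited pileups, which are not scaled to depth, were 84 to 95 in WT and 37 to 45 in KO. The tallest region (4:145254215-145255050), 7.80 kb upstream and inside the noncoding gene Gm36233, had 3.25, 3.89 and 3.55 in WT and 3.55, 3.0 and 3.22 in KO. Here the groups overlapped. Relative to the shift common to all regions, the start was lower in KO by a log2 difference of -0.21 (SE 0.11, limma adjusted p = 0.337) and the upstream region was at 0.22 (SE 0.10, adjusted p = 0.230), neither past the threshold. The difference between these 2 regions was not tested.

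CD30, a receptor of activated and effector T cells, is encoded by Tnfrsf8, the longest of the 8 genes, which held the most regions (15), among them the lowest of those called in all 6 libraries. Its start region (4:145314892-145315489) had scaled pileups of 1.57, 1.89 and 2.07 in WT and 1.40, 1.44 and 1.26 in KO. Every KO library was lower there, as at 48.2% of all regions called in all 6. The tallest region (4:145319073-145319811), 4.26 kb upstream, had 2.21, 2.04 and 1.97 in WT and 1.5, 2.06 and 1.91 in KO, with overlap. A region in the gene (4:145278303-145278643) was called at 0.82, 0.81 and 0.69 in WT and in no KO library. It was shallow, at the 15.2 percentile of heights of the regions called in all 6 libraries.

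DR3, the receptor of TL1A, is encoded by Tnfrsf25, with 2 annotated starts that lay in 1 region (4:152115719-152116591). That region had scaled pileups of 1.96, 2.11 and 2.45 in WT and 1.70, 1.81 and 1.87 in KO. The groups did not overlap, with KO lower, as at 48.2% of all regions called in all 6. The tallest region (4:152120205-152121155), just past the gene end and overlapping Espn, had 2.86, 2.93 and 2.48 in WT and 2.70, 2.38 and 2.48 in KO. Those groups overlapped.

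HVEM, which binds LIGHT as well as the inhibitory receptors BTLA and CD160, is encoded by Tnfrsf14 on the minus strand. Its start region (4:154927005-154928654) had scaled pileups of 2.14, 2.26 and 2.10 in WT and 2.00, 1.44 and 2.43 in KO, so the highest and the lowest library were both KO. The tallest region (4:154935805-154937217), 8.63 kb upstream, had 3.0, 2.89 and 2.76 in WT and 2.55, 2.94 and 2.70 in KO. A region 4.23 kb past the gene end (4:154913835-154914256) was called at 0.54, 0.30 and 0.55 in WT and in no KO library, at the 0.653 percentile of heights.

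CD27, the receptor of CD70, had a start region (6:125236478-125237821) with scaled pileups of 2.32, 2.19 and 2.03 in WT and 1.85, 1.69 and 1.96 in KO, without overlap. The tallest region in its window (6:125221878-125222863) lay 9.76 kb beyond the gene end, inside Vamp1. It had 2.93, 2.96 and 2.76 in WT and 2.35, 1.88 and 2.26 in KO, again without overlap. Both of the other regions, 1 upstream and 1 over the start of E130112N10Rik, were also called in all 6 libraries and were also lower in every KO library. Over all regions called in all 6, 48.2% were lower in every KO library.

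Peak numbers separated the genotypes at Tnfrsf8 alone. It held 13, 12 and 12 peaks in WT and 8, 10 and 9 in KO (12.3 ± 0.577 and 9 ± 1, SD, n = 3 each). The difference of -3.33 gave p = 0.1 in a two-sided exact permutation test, the smallest value that 3 against 3 libraries allow, and 0.8 after Benjamini-Hochberg adjustment over the 8 genes. Of all genes with a peak, 15.4% had all 3 KO libraries below all 3 WT libraries in peak number, and 0.455% had them above, so 1 gene of 8 is near the general share. With all lists cut to an equal length of 37266 peaks by significance, the difference at Tnfrsf8 was -1 (exact permutation p = 0.5) and the groups overlapped.

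The Tnfrsf8 difference lay in its weak regions. Of the 15, 7 were called in all 6 libraries, 4 in all WT but not all KO libraries and 4 in a single WT library. The mean scaled pileups of the last 8 ran from 0.517 to 1.10, and those of the 7 shared ones from 0.891 to 1.95. At the other genes peak numbers per library were 4 to 7 at Tnfrsf18, 4 to 6 at Tnfrsf4, 9 to 10 at Tnfrsf9 and at Tnfrsf1b, 3 to 4 at Tnfrsf25 and at Tnfrsf14, and 4 to 5 at Cd27, with overlapping groups throughout. A region can hold several peaks of 1 list.

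**Figure D3:**
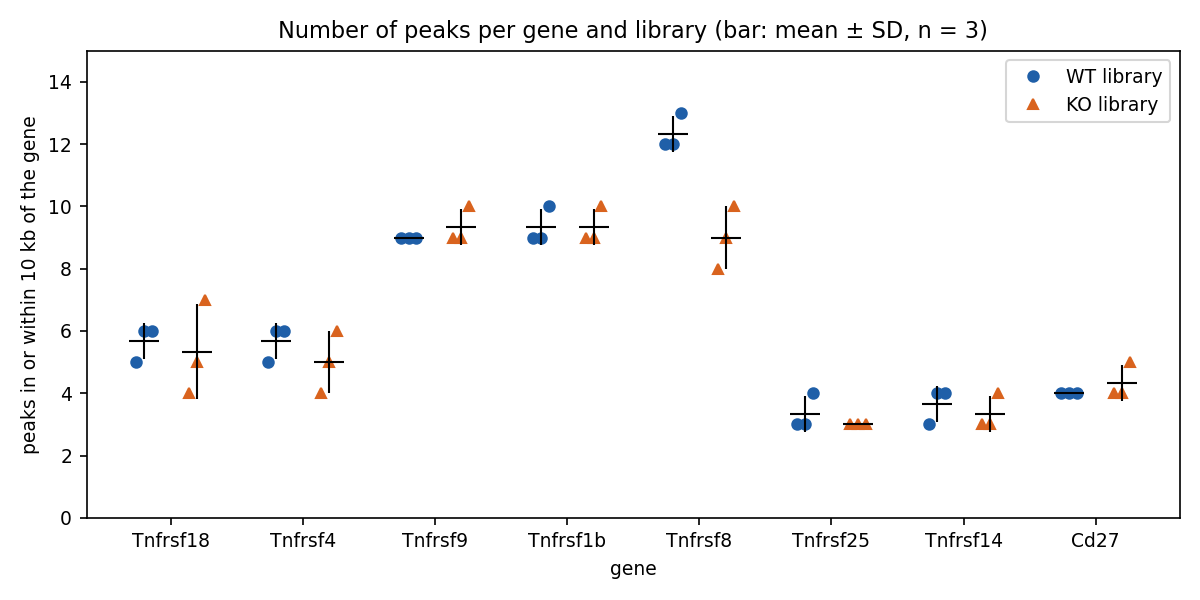
Number of peaks (y axis) in each gene or within 10 kb of it (x axis), with 1 point per library, circles for WT and triangles for KO, sorted within each group. Black marks give the mean ± SD (n = 3). Tnfrsf8 is the gene whose groups do not overlap, with 12 to 13 peaks in WT and 8 to 10 in KO.

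Called peaks were also shorter in KO. The mean called length was smaller in KO at 36 of the 39 shared regions, with a median KO to WT ratio of 0.818, and the median ratio over all regions called in all 6 libraries was 0.821. Summed over all its regions, the called length at Tnfrsf8 was 5.50 ± 0.311 kb in WT and 3.48 ± 0.108 kb in KO. Tnfrsf25 went from 2.86 ± 0.206 to 1.62 ± 0.158 kb, Tnfrsf14 from 2.90 ± 0.303 to 1.79 ± 0.256 kb, and Tnfrsf9 from 5.97 ± 0.196 to 5.05 ± 0.206 kb (SD, n = 3 each). Tnfrsf1b went from 6.93 ± 0.168 to 5.49 ± 0.632 kb and Tnfrsf4 from 3.93 ± 0.255 to 3.03 ± 0.0584 kb. Tnfrsf18 went from 3.38 ± 0.0317 to 2.77 ± 0.189 kb and Cd27 from 3.52 ± 0.123 to 2.98 ± 0.479 kb (SD, n = 3 each). The difference in summed length varied between the 8 genes, and its spread over all genes is not given. Depth moved with it, and its part was not tested.

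Division by the file median left the shared regions lower in KO on the whole. On the log2 scale, the median over regions called in all 6 libraries was 0.68 to 0.80 above the file median in WT and 0.32 to 0.43 above it in KO, a mean shift of -0.35. Before this shift was removed, 18 of the 39 regions (46.2%) had all 3 KO libraries below all 3 WT libraries, beside 48.2% of all. In the other direction, 1 (2.56%) was higher in every KO library, beside 0.197% of all. Differences were therefore tested after centring each library on its median over these regions, with limma on log2 values and Benjamini-Hochberg adjustment over all 29419 regions, at a threshold of 0.05.

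The region higher in every KO library lay 4.76 kb past the end of Tnfrsf9 (4:150950867-150951620), 31.0 kb from the first start. Its deposited pileups were 33, 29 and 26 in WT and 30, 21 and 34 in KO, although the KO libraries were shallower. The scaled pileups were 1.18, 1.07 and 0.90 in WT (1.05 ± 0.143, SD, n = 3) and 1.5, 1.31 and 1.48 in KO (1.43 ± 0.103). Every KO library stood above every WT library, and so did the folds, at 7.46, 6.88 and 6.82 in WT and 11.1, 8.40 and 8.66 in KO. Outside Tnfrsf9 the nearest protein-coding genes were Park7, 40.9 kb away, and Per3, 45.4 kb away.

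After centring, this region was higher in KO by 0.80 on the log2 scale (SE 0.18, limma adjusted p = 0.0121). It was the 1 region of 39 (2.56%) past the threshold in that direction, beside 2.10% of all regions, a share near the background. None was past it in the lower direction, beside 0.323% of all, and 8 of the 39 (20.5%), 7 of them higher in KO, had an unadjusted p under 0.05, beside 16.5% of all. The call was lost when any WT library or KO replicate 1 was left out, while the log2 difference stayed between 0.69 and 0.89. The limma adjusted p was 0.0585, 0.119 and 0.10 without WT replicates 2, 4 and 6, and 0.0785 without KO replicate 1. Over all regions, calls higher in KO numbered 617 in the main fit, 32, 6, 71 and 13 in these settings, and 0 from folds. Without centring the log2 difference at this region was 0.45 (limma adjusted p = 0.0541), and from the deposited folds 0.57 (limma adjusted p = 0.0840). With quantile normalization it held, at 0.82 (adjusted p = 0.0339).

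The scaling set how calls split over all regions: 617 were higher and 95 lower in KO after centring, 11 higher and 10186 lower without it, and 12 higher and 21 lower with quantile normalization. Without centring, 15 of the 39 regions of the 8 genes were lower in KO past the threshold and 0 higher, beside 34.6% of all regions lower, and each start or tallest region with a fitted value had a negative difference (the Tnfrsf18 start, called in 5 libraries, has none). Differences below are given relative to the common shift for that reason.

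The other 38 regions did not pass the threshold, with a lowest adjusted p of 0.156 at the tallest region, between Tnfrsf4 and Tnfrsf18 (log2 difference 0.22, SE 0.08). The lowest difference, -0.36 (SE 0.17, limma adjusted p = 0.274), belonged to a region in Tnfrsf1b at 4:145214271-145214924, named after its value was seen. It had scaled pileups of 1.89, 2.07 and 1.52 in WT and 1.40, 0.94 and 1.04 in KO. Among start regions, the log2 differences were 0.16 at Tnfrsf4, -0.08 at Tnfrsf8, 0.08 at Tnfrsf25, 0.17 at Tnfrsf14 and 0.10 at Cd27, with standard errors of 0.11 to 0.16. The tallest regions gave 0.19 at Tnfrsf9, 0.15 at Tnfrsf8, 0.22 at Tnfrsf25, 0.27 at Tnfrsf14 and -0.07 at Cd27.

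Over the 39 regions the median log2 difference was 0.10, beside 0.03 over all regions, and 26 (66.7%) were positive, beside 55.4%. Over all regions the difference was alike below a scaled pileup of 1.5 and rose with height above it. Its median was -0.0358 below 1, -0.0397 for 1 to 1.5 and 0.0025 for 1.5 to 2. It was 0.04 for 2 to 3, 0.14 for 3 to 4 and 0.23 above 4. At the 8 genes, the single region below 1 was at -0.0042, and the 5 between 1 and 1.5 had a median of -0.21. The 9 between 1.5 and 2 had one of 0.10, the 18 between 2 and 3 one of 0.09 and the 5 between 3 and 4 one of 0.19. The single one above 4 was at 0.22. The 8 genes have taller regions than most, so their positive median is read beside these values and not beside 0.03 alone.

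**Figure D4:**
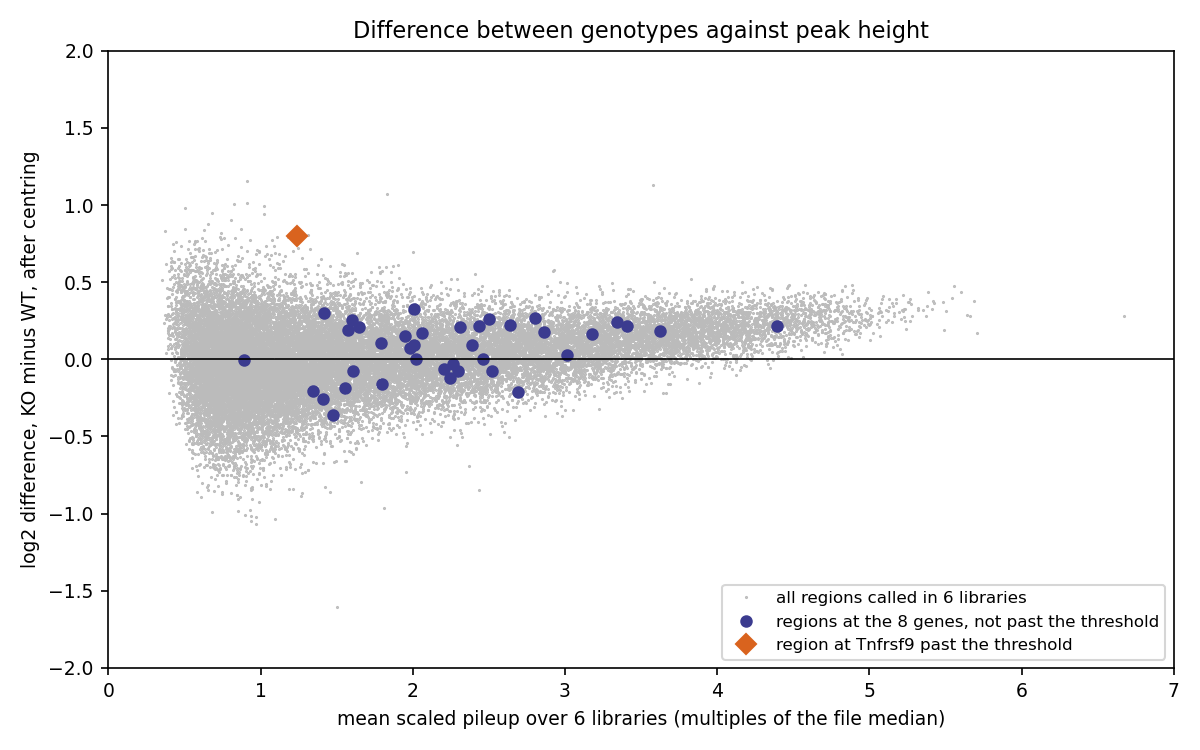
Log2 difference in height, KO minus WT, after centring (y axis) against the mean scaled pileup over 6 libraries (x axis), for all 29419 regions called in 6 libraries (grey) and the 39 at the 8 genes. The diamond is the region past the end of Tnfrsf9, at 0.80, and the other 38 lie between -0.36 and 0.33. The grey points drift upward with height.

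Taken gene by gene, with the scaled pileups of the regions called in all 6 libraries added up, none of the 8 genes passed the threshold in either direction, beside 0.586% of 14328 genes lower and 0.300% higher in KO (limma, centred on the median gene). An unadjusted p under 0.05 was reached by 2 of the 8, Tnfrsf4 and Cd27, beside 20.7% of all genes. Tnfrsf4 had the lowest adjusted p, 0.172, at a log2 difference of 0.14 (SE 0.06), from sums of 12.5 ± 0.333 in WT and 11.5 ± 0.75 in KO. Cd27 was at the other end, at -0.14 (SE 0.06, adjusted p = 0.228), from 9.79 ± 0.261 and 7.45 ± 0.797 (SD, n = 3 each). Tnfrsf14 was at 0.15 (SE 0.08), Tnfrsf9 at 0.09 (SE 0.05), Tnfrsf8 at 0.01 (SE 0.05), Tnfrsf18 at 0.00 (SE 0.05), Tnfrsf25 at -0.03 (SE 0.07) and Tnfrsf1b at -0.06 (SE 0.05), with adjusted p-values of 0.307 to 0.989. Without centring, 6 of the 8 sums were lower in KO past the threshold, beside 68.1% of all genes. From deposited folds in place of heights, Tnfrsf4 was higher in KO, at 0.36 (limma adjusted p = 0.0429), beside 0.126% of all genes.

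The ligands, other receptors and signalling proteins of the pathway were taken from lists of their families, and 0 genes passed the gene threshold in each list by limma. Of 9 ligand genes, 6 could be tested, Tnf and Lta from the same regions and so with 1 value between them. In this list 0 had an unadjusted p under 0.05, and their median log2 difference was 0.01 beside -0.03 over all genes. Tnfsf18, which encodes the GITR ligand, had no region in any library. Tnfsf15, which encodes the DR3 ligand TL1A, had 1 of its 4 regions called in 3 WT and 0 KO libraries. Of 16 other receptor genes of the superfamily, 9 could be tested, 0 had an unadjusted p under 0.05, and the median was -0.12. Regions called in 3 WT and 0 KO libraries lay at Tnfrsf1a, Fas, Tnfrsf13b, Tnfrsf13c, Tnfrsf19, Ngfr and Edar (2 regions), with mean scaled pileups of 0.380 to 1.18. These genes held 5, 7, 6, 3, 4, 3 and 4 regions in that order. The other receptor genes of the list had no region of that kind. Of these, Tnfrsf11a held 4 regions, and Cd40, Tnfrsf10b and Tnfrsf12a held 3 each. Ltbr, Tnfrsf17 and Tnfrsf21 held 1 each, and Tnfrsf11b and Eda2r none. Over all regions, 4.66% were called in 3 WT and 0 KO libraries and 0.0185% in 3 KO and 0 WT libraries. Depth was lower in every KO library, and its part was not tested.

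All 10 genes of TRAF, cIAP, NIK and related signal proteins were testable, with a median of 0.05 and a lowest adjusted p of 0.0966. An unadjusted p under 0.05 was reached by 4 of the 10, beside 20.7% of all genes. These were Birc2, Map3k14, Traf1 and Birc3, named after their values were seen, with positive differences, beside 7.89% of all genes with such a p and a positive difference. The neighbours Birc2 and Birc3 share 1 region, the one Birc2 was tested on, so their values are not separate measurements. Traf5 had 1 of its 8 regions called in 3 WT and 0 KO libraries, beside 4.66% of all regions. Of the 2 inhibitory partners of HVEM, Btla had no region of that kind and Cd160 had 1 of 3. Both genes were within 0.04 of no difference on the log2 scale. No gene in these lists had a region called in 3 KO and 0 WT libraries.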

How the data were processed

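Peak lists of 6 mouse Treg ATAC-seq libraries were analysed, grouped by the genotype in the titles. The submitters' processing notes name Bowtie2 2.3.1, Picard 1.88 and the build mm10. Per the file headers, MACS 2.1.1.20160309 called peaks per library at a q-value of 0.05, with a tag shift of -100 bp, an extension to 200 bp and a local background window of 10000 bp. The deposited pileup is a signal not scaled to depth. The deposited fold enrichment is a ratio of height to local background, and the deposited −log10 p-value and q-value give its significance. A Tn5 offset correction is not stated in the headers or labels used. A fixed q-value calls weaker sites in deeper libraries.

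Peaks overlapping by at least 1 bp were merged, and the highest pileup of a library in a region was divided by its file median. Regions called in all 6 libraries were tested with limma 3.58.1 (R 4.3.3, trended eBayes) on centred log2 values. On simulated data this fit recovered 57% of planted 1.5-fold and 91% of planted 2-fold changes, with 11 false calls over 29419 regions. The simulated noise was independent and drawn from the means and variances of the fit itself. It held no depth difference between genotypes and no drift of the difference with height. These rates therefore hold for data that obey the model and cannot give the false calls in these libraries. Smaller changes were not simulated. Peak numbers were tested by exact permutation over 20 assignments. Genes and promoters came from RefSeq tables on GRCm38.p6. The text gives coordinates for each gene's start region, its tallest region, regions past the threshold and regions called in 3 libraries of one genotype and 0 of the other. Alternatives were a −log10 q-value of at least 5, the gene span alone, equal-length lists, 200 bp windows around summits, no centring, quantile normalization, folds in place of heights, leaving out each library, and the replicate number as a block. The genes and lists were chosen with earlier results of these data known.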

Additional observations from a re-analysis of the deposited data

How the results depend on the processing

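Counts over the 8 genes depended on the following choices. The number of regions called in all 6 libraries was 20 in the gene span alone and 39 to 41 when a library was left out. Regions called in 3 WT and 0 KO libraries numbered 1 in the gene span and 0 in equal-length lists (2 to 3 leaving out a library). Genes with fewer peaks in every KO library numbered 2 at the stricter threshold (Tnfrsf8 and Tnfrsf25) and 0 in equal-length lists. The share of all genes was 15.4% in the main lists and is not given for these settings. The separation of Tnfrsf25 therefore has no background. The region count higher in KO was 0 in the gene span, without centring, from folds and with the replicate block, and 0 to 1 leaving out a library. Over all regions this count was 617 in the main fit, 11 without centring, 0 from folds and 28 with the replicate block. Without centring, 15 regions and 6 genes were lower in KO, beside 34.6% of all regions and 68.1% of all genes. From folds, 1 gene was higher.

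Values that changed sign were not past the threshold in the main analysis. Leaving out the centring moves every region difference by the same -0.35, and every gene sum by another common amount. The changes of sign in that setting follow from this common shift. In the other settings the cause was not tested. Peak number differences became 0.667 at Tnfrsf14 in the gene span, and 1 at Tnfrsf18, 0.333 at Tnfrsf4 and 0.333 at Tnfrsf14 in equal-length lists. Without centring, the log2 differences were -0.13 (Tnfrsf1b), -0.19 (Tnfrsf8), -0.16 (Tnfrsf9), -0.13 (Tnfrsf25), -0.081 (Tnfrsf14) and -0.13 (Tnfrsf18) at the tallest regions. At the starts they were -0.27 (Tnfrsf25), -0.18 (Tnfrsf14), -0.19 (Tnfrsf4) and -0.25 (Cd27). Gene sums were then -0.26 (Tnfrsf18), -0.12 (Tnfrsf4), -0.18 (Tnfrsf9), -0.26 (Tnfrsf8) and -0.11 (Tnfrsf14). From folds, the starts of Tnfrsf1b and Tnfrsf8 were at 0.14 and 0.15, the second start of Tnfrsf9 at 0.018, the tallest Cd27 region at 0.076, and the sums of Tnfrsf1b, Tnfrsf25 and Cd27 at 0.16, 0.10 and 0.041. The Tnfrsf25 sum was 0.053 at the stricter threshold, 0.0034 in the gene span, 0.066 with windows and 0.048 with quantile normalization. The Tnfrsf8 sum was -0.0038 at the stricter threshold, the Cd27 sum 0.024 in the gene span, and the Tnfrsf18 sum -9.8e-05 with windows and -0.0048 with quantile normalization, which put its tallest region at -0.016. Leaving out a library gave -1.17 to 0.333 for the Tnfrsf18 peak number, -0.25 to 0.0060 at the second Tnfrsf9 start, -0.18 to 0.010 at the Tnfrsf8 start, -0.11 to 0.0045 at the tallest Cd27 region, and sums of -0.041 to 0.024 for Tnfrsf18 and -0.032 to 0.018 for Tnfrsf8.

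The replicate numbers 2 and 4 occur in both genotypes, and the labels do not say whether equal numbers mark pairs. Deviations of same-numbered libraries had correlations of -0.0208 and -0.0519 over 29419 regions. Pairs with unlike numbers had -0.0338 to 0.0524. These values cannot decide whether libraries were paired, and a shared batch was not tested. With the replicate block, on those 4 libraries, the region past Tnfrsf9 was at 0.70 (limma adjusted p = 0.160), the Tnfrsf8 start at 0.034 and the Tnfrsf8 sum at -0.018. Regions outside the gene spans and the Tnfrsf18 sum have no value in the gene span alone, nor the second Tnfrsf9 start with windows. Depth limits the calls at weak sites, and since every KO library was shallower it cannot be told apart from genotype.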
